A study of Mus musculus with 39 samples.

Results

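Elongating spermatids were taken from droplet single-cell RNA-seq of whole mouse testis as cells whose highest score was that of 4 late spermatid genes, Prm1, Prm2, Tnp2 and Oaz3. In all, 9126 of 18998 cells met this rule, 5372 of 10790 in the control library and 3754 of 8208 in the library with a germ-cell deletion of Kdm6a. Cell barcodes entered with at least 3000 UMIs (unique molecular identifiers, each standing for 1 captured transcript end), at most 20% mitochondrial UMIs and fewer than 3 UMIs in sum of Stra8, Prdm9, Dmrt1, Cyp17a1 and Sox9. The score of a cell was the mean z-score of 4 genes, and the late spermatid score had to exceed both a round spermatid score (Acrv1, Spaca1, Spaca7, Catsper3) and a spermatocyte score (Piwil1, Pou5f2, Ccna1, Hspa2). The members were therefore chosen by their RNA levels, and levels of the scoring genes, or of any gene in these cells against the other cells, are given as a description without a test.

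The study asked what the X-linked gene Kdm6a, which encodes a demethylase of lysine 27 of histone H3, does in the mouse male germ line. The control library came from Kdm6a fl/y; Cre- testis and the conditional knockout (cKO) library from Kdm6a fl/y; Ddx4-Cre+ testis, so that the floxed allele was present in both and Cre, driven by the germ-cell gene Ddx4, only in the cKO. Each genotype had 1 single-cell library, and no source used here gives the age or the number of the animals behind them. With 1 library a genotype no difference between genotypes could be tested, and the intervals below, exact at 95%, cover counting error only.

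Elongating spermatids remodel the haploid nucleus and build the sperm tail. Histones give way to transition proteins and then to protamines, the head is shaped by a transient microtubule skirt called the manchette, and outer dense fibres, a fibrous sheath and a sheath of mitochondria are laid around the axoneme. Transcription ceases as the chromatin condenses, so many late proteins, protamines among them, are made from mRNA stored earlier under the control of RNA-binding proteins.

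The protamine and transition protein genes dominated these cells, and their promoters are shown because 3 of the 4 lie in 1 gene cluster on chromosome 16. Sequences are from RefSeq, build GRCm38.p6, 250 bases up to the gene start, read 5′ to 3′ on the minus strand. Capitals mark letters that match TGANNTCA or TATA, both of them equal to their own reverse complement. TGANNTCA is the cAMP-response element TGACGTCA with its central bases left free, so its matches include TGACGTCA. The windows were Prm1 at chr16:10796824-10797073, Prm2 at chr16:10792106-10792355, Tnp2 at chr16:10788656-10788905 and Tnp1 at chr1:73015900-73016149.
Prm1: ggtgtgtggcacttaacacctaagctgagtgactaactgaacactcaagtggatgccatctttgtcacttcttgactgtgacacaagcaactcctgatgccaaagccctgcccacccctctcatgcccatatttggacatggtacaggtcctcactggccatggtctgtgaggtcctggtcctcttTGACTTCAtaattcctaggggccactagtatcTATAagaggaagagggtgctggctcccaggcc
Prm2: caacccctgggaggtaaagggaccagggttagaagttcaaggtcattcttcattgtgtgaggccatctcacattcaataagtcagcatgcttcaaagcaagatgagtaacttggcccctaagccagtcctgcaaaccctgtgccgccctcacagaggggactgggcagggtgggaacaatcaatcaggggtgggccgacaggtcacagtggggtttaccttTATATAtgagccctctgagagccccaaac
Tnp2: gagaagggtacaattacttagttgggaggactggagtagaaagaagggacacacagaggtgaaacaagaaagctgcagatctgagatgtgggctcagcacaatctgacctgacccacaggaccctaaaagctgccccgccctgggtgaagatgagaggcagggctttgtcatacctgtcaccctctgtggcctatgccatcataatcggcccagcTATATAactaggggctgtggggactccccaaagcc
Tnp1: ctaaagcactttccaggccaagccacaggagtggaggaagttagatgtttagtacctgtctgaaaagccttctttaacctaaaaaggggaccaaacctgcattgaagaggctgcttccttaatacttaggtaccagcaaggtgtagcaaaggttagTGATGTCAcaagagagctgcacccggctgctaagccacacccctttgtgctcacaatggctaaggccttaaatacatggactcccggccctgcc
Prm1 held TGACTTCA with its first base 64 bases before the gene start and TATA 32 bases before it, and Tnp1 held TGATGTCA 94 bases before it. Prm2 and Tnp2 held the overlapping form TATATA. The 32851 RefSeq promoter windows span 300 bases, of which only the 250 before the gene start were searched. TGANNTCA occurred in 11.9% of the windows, TGACGTCA in 1.55% and TATA in 34.0%. Among the 496 genes with a window and a level at least 2-fold higher in elongating than in round spermatids of both libraries, TGANNTCA occurred in 21.8% and TATA in 26.6%, against 13.5% and 37.7% of all 27025 genes with a window. For the 2872 genes that were lower by the same fold, the shares were 13.9% and 27%. The exact element TGACGTCA did not set the higher genes apart from the lower ones. It occurred in 3.43% of the higher genes, 3.52% of the lower genes and 1.77% of all genes. The letters were chosen after the sequences had been seen, and a match is a description, not a binding site.

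Elongating spermatids made up 49.8% of the control cells (48.8% to 50.7%) and 45.7% of the cKO cells (44.7% to 46.8%). The order of the libraries rests on the UMI minimum, since with at least 2000 UMIs the shares were 46.1% and 47.1%. Requiring the late spermatid score to lead by at least 0.5 left 43.0% and 42.1%. Whether the genotypes differ in the share of elongating spermatids was not tested.

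The libraries held 229882646 UMIs (control) and 172368722 UMIs (cKO), of which 57.8% and 57.5% lay in barcodes with at least 3000 UMIs. The elongating spermatids were shallow cells, with a median of 6576 UMIs in control and 6232 in cKO, against 11617 and 11555 in round spermatids. When every cell was thinned to 3000 UMIs they showed a median of 1218 and 1140 genes, against 1720 and 1699 in round spermatids (unthinned 1992 and 1792 against 3742 and 3670). Free RNA was plentiful: a separate peak of droplets without cells, 50745 in control and 46881 in cKO, held a median of 1366 and 810 UMIs. If each elongating spermatid carried that many, free RNA made up 17.3% of the elongating spermatid UMIs in control and 11.0% in cKO, and values after subtracting it are given beside the main results. The libraries shared 25 barcodes among the cells that passed, 5 of them elongating spermatids in both, and no cell was removed for this. Scrublet called 3.63% of the control and 4.40% of the cKO elongating spermatids doublets, fewer than the 5.50% and 6.51% among all barcodes with at least 3000 UMIs.

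**Figure D1:**
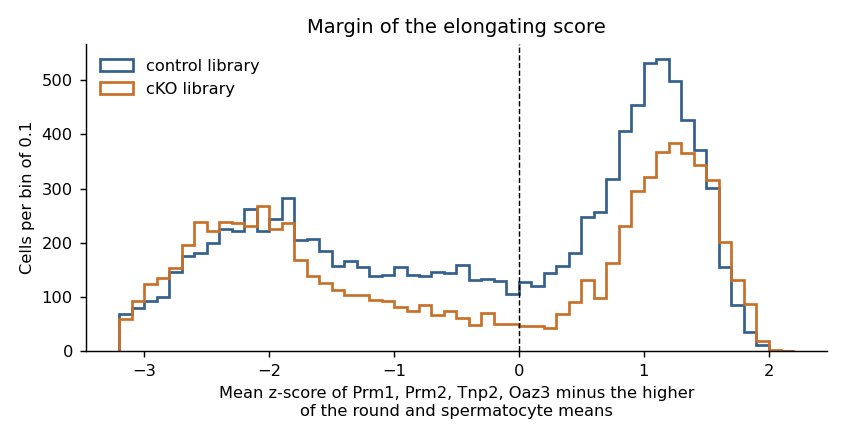
Number of cells (y axis, bins of 0.1) by the late spermatid score minus the higher of the other 2 scores (x axis, in z-score units) in the control and cKO libraries; the dashed line at 0 is the limit of the rule. The elongating spermatids to the right of the line form a broad hump with a median margin of 1.05 in control and 1.19 in cKO, and 128 and 46 of them lie within 0.1 of the limit.

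The limit of the rule ran through a thin zone between the classes. In control, 732 of the elongating spermatids (13.6%) led by less than 0.5, and in cKO 295 (7.86%). Prm1 stood at 29468 per 1000000 UMIs in the 100 control cells just inside the limit and at 29341 in the 100 just outside, and in cKO at 40284 and 35796. Doublet calls were frequent there, 14 inside and 15 outside in control and 22 and 27 in cKO.

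Prm1, Prm2, Tnp1 and Tnp2 together held a median of 18.5% of a control cell's UMIs (quartiles 14.9% and 22.1%) and 21.3% of a cKO cell's (17.8% and 24.6%). In round spermatids the median was 1.13% and 0.577%, in spermatocytes 0.544% and 0.420%, and the droplets without cells held 4.09% and 3.39%. All levels that follow are counts of a gene per 1000000 UMIs of the summed cells (CPM). The kit reads transcript ends, so counts were not divided by gene length.

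Prm1, a small arginine-rich protein that packs the sperm genome, stood at 69929 CPM in control and 80380 in cKO, against 8787 and 5981 in round spermatids. Prm2, the protamine that is made as a longer precursor and trimmed, stood at 61472 and 65985. The transition protein genes followed, Tnp2 at 32766 and 35739 and Tnp1, which the rule did not use, at 27433 and 31233. Oaz3, the testis form of the antizyme that limits polyamine synthesis, was far lower at 1862 and 1747, against 833 and 723 in round spermatids. Of late spermatid genes outside the rule, Tnp1, Prm3, H1fnt and Smcp were above their round spermatid levels in both libraries, though their lists also hold genes that were below. The 4 scoring genes differed in how sharply they marked the class: Prm1 was higher than in round spermatids by 2.99 (control) and 3.75 (cKO) on the log2 scale with 1 CPM added, and Oaz3 by 1.16 and 1.27.

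The list of chromatin remodelling genes as a whole was mixed. Of the 16 measured genes of this list in control, 7 were at least 2-fold higher than in round spermatids and 3 at least 2-fold lower, where 8.34% of all 7971 genes measured were higher and 48.3% lower. In cKO it was again 7 and 3 of 16, beside 10.5% and 54.6% of 7841 genes. In both libraries the 7 include the scoring genes Prm1, Prm2 and Tnp2, whose high values the rule selects for, and Tnp1. The linker histone gene H1fnt stood at 2099 CPM in control and 2259 in cKO, and Hils1, the other spermatid linker histone gene, at 1751 and 1748. Tssk6, a kinase linked to histone removal, stood at 1882 and 2077 against 337 and 242 in round spermatids. Regulators that act before condensation were low, such as Brdt, the testis bromodomain reader of acetylated histones, at 49.3 and 34.7, and Brwd1, another bromodomain protein, at 12.7 and 6.57. Because the rule split the cells along this contrast, nothing is read from these counts.

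**Figure D2:**
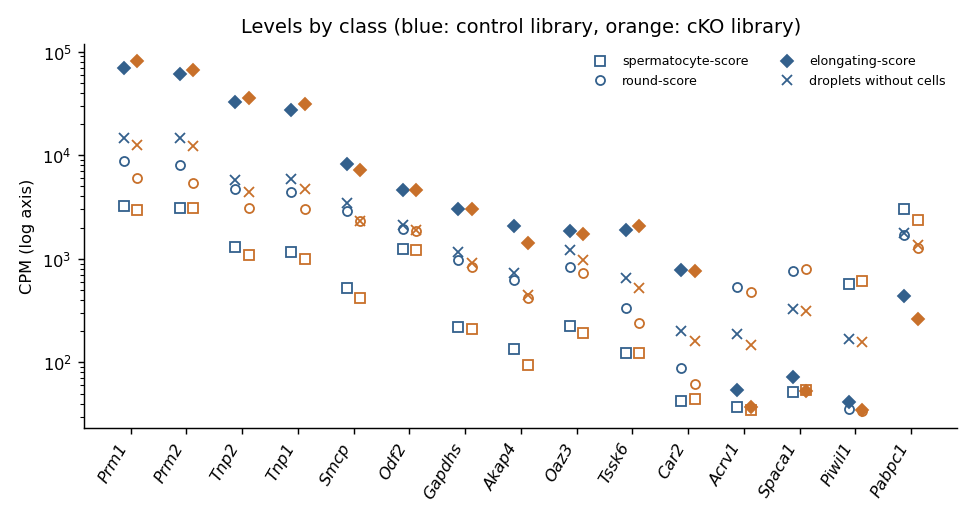
CPM (y axis, log axis) of genes in spermatocytes, round spermatids, elongating spermatids and droplets without cells, blue for control and orange for cKO; each point is 1 library. Prm1 reaches 69929 and 80380 in elongating spermatids, and the droplets without cells lie between the round and the elongating spermatids for this gene, at 14591 and 12570.

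The 15 most abundant genes began with Prm1, Prm2, Tnp2 and Tnp1 and then held genes of varied roles. Smcp, a cysteine-rich protein of the mitochondrial capsule, stood at 8276 and 7278 CPM, and Dbil5, an endozepine-like peptide, at 6371 and 6675. Gsg1 followed at 5410 and 5771, Gstm5, a glutathione transferase, at 5066 and 5032, and Fabp9, a fatty acid-binding protein of the testis, at 4972 and 4887. Eif1, a translation start factor, stood at 4691 and 4822, against 1777 and 1700 in round spermatids. Of these 6 genes, Gstm5 and Fabp9 were nearly as high in round spermatids (3511 and 3689, and 3788 and 3920), whereas Smcp, Dbil5, Gsg1 and Eif1 were higher in elongating spermatids by 1.40 to 1.67 on the log2 scale. Gm42418, which overlaps ribosomal RNA repeats in the genome, stood at 18645 and 15930, but at 75582 and 64364 in the droplets without cells, and after subtraction of free RNA it stood at 6712 and 9958.

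Among genes outside the rule, the 15 with the highest ratio to round spermatids covered enzymes, cytoskeletal proteins and genes of unknown role, none of them part of the compaction list. Cby3, of the chibby family of cilium proteins, led with 271 CPM in control and 300 in cKO, against 25 and 17.1 in round spermatids. Car2, a carbonic anhydrase that interconverts carbon dioxide and bicarbonate, stood at 776 and 770 against 88.7 and 62.3. Acte1, an actin of the epsilon type, stood at 489 and 513 against 60.9 and 41.7. The kallikrein-family serine proteases Klk1b8 (696 and 800) and Klk1b26 (248 and 288) were both among the 15, though reads of this family of near-identical genes may be shared between copies. The remaining members included Apoe, the lipid carrier apolipoprotein E, at 184 and 207, and Cdkn1c, an inhibitor of cyclin-dependent kinases, at 193 and 218. All 15 were within 0.24 of equality between libraries on the log2 scale (lowest -0.07 for Gm4665, highest 0.24 for 1700084D21Rik). The minimum level and the ranking both asked for high values in each library.

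Several genes of the sperm tail were abundant. Odf2, a scaffold of the outer dense fibres, stood at 4624 and 4581 CPM, Spa17, a protein of the fibrous sheath, at 3661 and 3417, and Tcp11 at 2399 and 2691. Of the 12 genes of the outer dense fibres and fibrous sheath, 2 (Odf2 and Akap4) were at least 2-fold higher than in round spermatids in both libraries and 3 were lower, beside 8.34% higher and 48.3% lower over all genes in control and 10.5% and 54.6% in cKO. For the sheath of mitochondria it was 2 of 13 higher, Smcp and Spata18, with 7 lower in control and 8 in cKO and a median log2 ratio to round spermatids of -1.62 and -1.86. Spata18, a protein of mitochondrial quality control, stood at 1055 and 1060 against 248 and 199. Gpx4, the selenium-dependent peroxidase that is also built into the capsule, stood at 3276 and 3537 and exceeded its round spermatid level by 0.61 and 0.60 on the log2 scale.

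Genes for glycolysis, which powers the tail, lay on both sides of their round spermatid levels. Gapdhs, the sperm form of glyceraldehyde phosphate dehydrogenase, stood at 3013 and 3037 CPM against 965 and 840 in round spermatids. Ldhc, the germ-cell lactate dehydrogenase, was lower than in round spermatids, at 3487 and 3452 against 6563 and 7543. Pgk2, the retrogene for phosphoglycerate kinase, stood at 1016 and 960 against 587 and 606.

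Manchette and kinase genes also ranged widely. Spem1, needed to remove cytoplasm from the sperm head, was at 522 and 534 CPM, 2.10 and 2.62 above round spermatids on the log2 scale. Hook1, which tethers cargo to manchette microtubules, stood at 974 and 702, above round spermatids by 1.17 and 1.57. Meig1, by contrast, was abundant at 4375 and 4697 yet slightly below its round spermatid level of 5066 and 5837. Of the testis-specific serine kinases, Tssk2 stood at 1429 and 1380 and Tssk3 at 805 and 744.

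Among RNA storage genes 10 of 13 in control and 11 of 12 in cKO were at least 2-fold lower than in round spermatids and none was higher, where 48.3% and 54.6% of all genes were lower. As the rule used this contrast, nothing is read from the counts. Ybx1 and Ybx3, cold-shock proteins that package stored mRNA, stood at 962 and 733 and at 1003 and 813 CPM, against 2306 and 2277 and 2044 and 2088 in round spermatids. Ybx2, the germ-cell member of the same family, did not share this, at 683 and 630 against 679 and 690. Crem, the activator that turns on post-meiotic genes including protamines, stood at 99.8 and 88.3 against 447 and 494. Of the 16 acrosome genes, 14 were lower in each library, beside the same shares of all genes, and 3 of the 14 (Acrv1, Spaca1 and Spaca7) are scoring genes whose low values the rule selects for. Spaca9 was the most abundant acrosome gene, at 1156 and 1136. Ubiquitin genes were split: Ube2n, a ubiquitin-conjugating enzyme, was higher by 1.11 and 1.27 and Ubb, a polyubiquitin gene, lower by 0.84 and 0.95.

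The elongating spermatids were not uniform, and the lead of the late spermatid score, cut into 4 ranges at 0.81, 1.11 and 1.37 (the quartiles over both libraries), ordered them. The lowest range held 29.4% of the control members and 18.7% of the cKO members, and the highest 20.2% and 31.9%. From the lowest to the highest range, Prm1 went from 50202 to 90381 CPM in control and from 56096 to 97822 in cKO. Tnp1 went from 19700 to 34832 and from 21167 to 37946. These genes define or accompany the score, so their order across the ranges is a description.

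Genes outside the score moved along the same ranges in both directions. Odf2 stood at 3864, 4536, 4904 and 5246 CPM in control and at 3819, 4380, 4704 and 5036 in cKO, higher in each range than in the one before. Gapdhs went from 2564 to 3394 in control and from 2534 to 3326 in cKO, and Car2 from 652 to 870 and from 660 to 823. Against these, Ybx1 stood at 1387, 1213, 805 and 391 in control and at 1298, 951, 673 and 323 in cKO. Ybx3 went from 1322 to 440 and from 1201 to 384, and Ldhc from 4305 to 2164 and from 4634 to 2260. Ybx2 varied less, between 653 and 715 in control and between 607 and 640 in cKO.

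Many genes were lower where the score was highest and almost none were higher by the same fold. Between the highest and the lowest range, 1884 of the 5934 genes with at least 10 CPM in either library's elongating spermatids were at least 2-fold lower in control and 2080 in cKO, 1668 of them in both. In control 1 gene was at least 2-fold higher, Fhit, a tumour suppressor hydrolase, at 6.66, 12.1, 11.9 and 14.8 CPM over the ranges, and in cKO 0 were. Cypt1, an X-linked gene of a family of cysteine-rich proteins, and Pabpc1, the poly(A)-binding protein gene, were lower at different ends of the score. Cypt1 stood at 616, 689, 556 and 301 in control and at 611, 680, 566 and 290 in cKO, so that its largest step was into the last range. Pabpc1 had its largest step into the second range, at 733, 386, 329 and 281 and at 513, 233, 213 and 179. The median UMIs per cell went from 4995 to 7978 in control and from 4931 to 6583 in cKO over the ranges, and doublet calls were most frequent in the lowest (91 of 1581 and 73 of 701 cells).

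**Figure D3:**
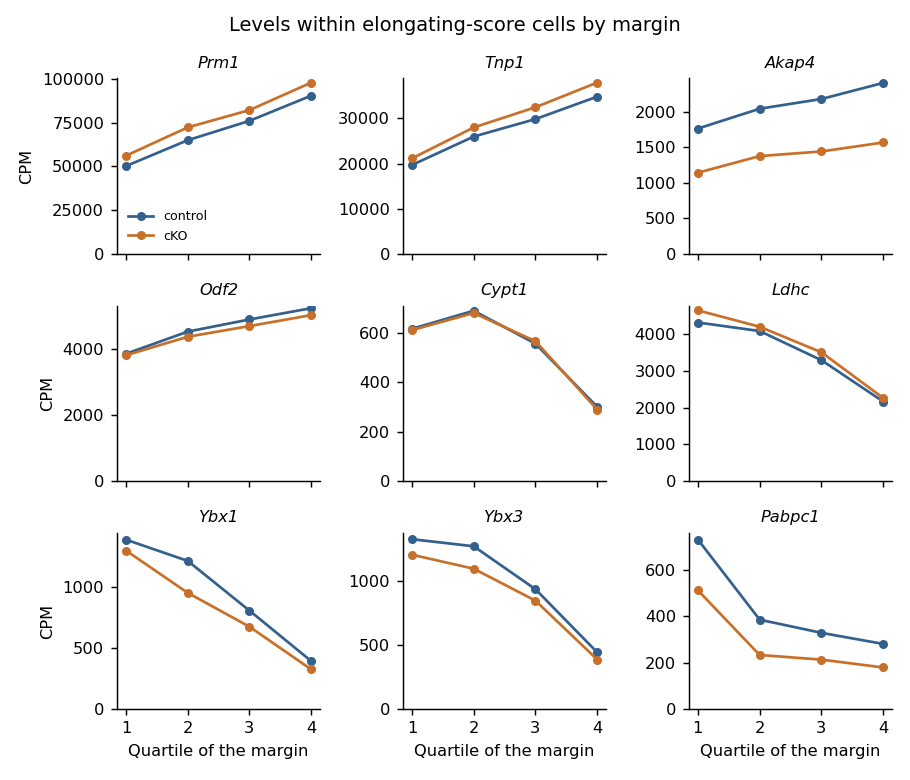
CPM (y axis, starting at 0) in the 4 ranges of the lead of the late spermatid score (x axis, 1 lowest), blue for control and orange for cKO; each point is the sum of the cells of 1 range in 1 library. Prm1 rises along the axis to 90381 and 97822, Ybx1 goes down to 391 and 323, and the libraries run close together for most genes but apart for Akap4 and Pabpc1.

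RNA of other cell types was low in the elongating spermatids, and not all lists had the same order of libraries as in the free RNA. The 8 Sertoli markers summed to 140 CPM in control and 138 in cKO, and 297 and 348 in the droplets without cells. Their sums were lower in round spermatids (102 and 105) and in spermatocytes (83.8 and 107). The 6 Leydig markers summed to 8.0 and 6.17, the macrophage markers to 6.54 and 9.10, the myoid markers to 3.71 and 3.47 and the endothelial markers to 3.00 and 2.89. In the droplets without cells the Leydig markers summed to 35.7 and 28.1, and the macrophage markers, in the opposite order, to 8.45 and 5.69. The 4 red cell markers summed to 27.7 and 17.7, in control almost all in the 2 lowest ranges of the score and in cKO almost all in the second range. The round spermatid scoring genes summed to 300 and 242, of which free RNA would supply 141 and 81.7. In the range of the highest score the same sum was 82.4 and 68.3, beside the 122 and 79.5 that free RNA would supply, but that range is defined by low values of these same genes. Of lists outside the rule, the Sertoli markers stood there at 97.9 and 106, with 44.4 and 37.1 from free RNA, and the early spermatocyte markers at 163 and 140, with 117 and 83.6. The early spermatocyte markers summed to 313 and 241, against 2427 and 2556 in spermatocytes, and 1 of the 4 measured, Hormad1 (32.2 and 21.1), was past 1.5-fold lower in cKO, where 5.07% of all genes were.

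Kdm6a, the deleted gene, was near the limit of detection in elongating spermatids. It had 53 UMIs in all control members and 16 in all cKO members, or 1.25 and 0.578 CPM. Without the 1 CPM added elsewhere, the log2 ratio of these levels was -1.12 (-2.02 to -0.29). It was -2.12 (-2.97 to -1.35) in round spermatids and -2.23 (-3.24 to -1.35) in spermatocytes. With 1 CPM added it was -0.51 in elongating spermatids. Free RNA alone would supply 15.4 and 4.08 of the UMIs in elongating spermatids. Since the kit reads 3′ ends and the deleted exons are not stated in the labels, these counts check the label only in part.

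Few genes differed by 1.5-fold between the elongating spermatids of the libraries, and as counted nearly all that did were lower in cKO. Among 5934 genes, 4 (0.0674%) were at least 1.5-fold higher in cKO and 301 (5.07%) at least 1.5-fold lower, or 5.14% past this fold in either direction, on the log2 scale with 1 CPM added. The median gene was at -0.10, and levels are shares of all UMIs, of which protamine transcripts held more in cKO. Factors from TMM scaling, which discount such genes, shifted the scale by 0.13 (log2, less for genes near the 1 CPM added) and left 14 higher and 112 lower. Subtracting the free RNA of each library gave 106 higher (1.79%) and 167 lower (2.81%), with a median of -0.02. It shared 155 of the 301 lower genes and 2 of the 4 higher ones. The cKO members also lay more often in the highest range of the score, and weighting the 4 ranges equally left 7 higher and 171 lower. The parts of free RNA and of position along the score in these counts were not tested.

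**Figure D4:**
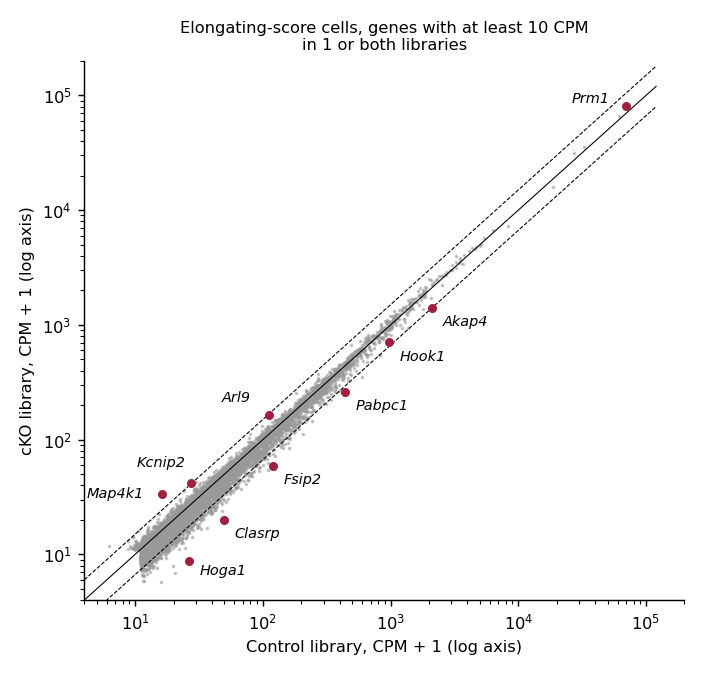
Level of each of 5934 genes in elongating spermatids of the control library (x axis) and the cKO library (y axis), CPM plus 1, both on log axes; the solid line is equality and the dashed lines 1.5-fold. Hoga1, Clasrp and Fsip2 lie below the lower dashed line and Map4k1 above the upper, while Prm1 lies near equality.

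Of the 10 genes with the lowest ratio, Hoga1, an aldolase of hydroxyproline breakdown in mitochondria, was higher in elongating than in round spermatids and lower in cKO in both. It stood at 25.4 CPM in control (23.9 to 27) and at 7.83 in cKO (6.83 to 8.95), at a log2 ratio of -1.58, and its level in elongating spermatids was above that in round spermatids (9.70 and 3.67). It was lower in cKO in each of the 4 ranges, 23.4 to 27 against 4.63 to 8.69. For this and the genes below, the ranges split the same cells that gave the ratio, so they are not replicates. After subtraction of free RNA its log2 ratio was -1.66.

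St6galnac2, a sialyltransferase gene (St6galnac2_ENSMUSG00000110170, since more than 1 ID carries the symbol), had the same pattern. It stood at 108 CPM in control and 53.4 in cKO, above round spermatids (40.6 and 20.4), with a log2 ratio of -1.01 as counted and -1.06 after subtraction. In the ranges of the score it stood between 99.8 and 112 in control and between 43.4 and 61.3 in cKO.

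The other 8 genes with the lowest ratios were all higher in the droplets without cells than in the elongating spermatids. All 8 were also lower in cKO in round spermatids and in spermatocytes. Clasrp stood there at 231 and 61.0 CPM and at 130 and 38.2, and Fsip2 at 618 and 379 and at 628 and 356. Clasrp, a splicing regulator, stood at 48.4 and 19.0 CPM, with 172 and 54.6 in the droplets without cells. Fsip2, a giant protein that interacts with the fibrous sheath, stood at 119 and 57.5, with 514 and 334 there. Subtraction brought their log2 ratios from -1.31 to -0.59 and from -1.04 to -0.61. The mitochondrial gene mt-Nd6 and Hist1h2aa, a testis histone H2A gene, stood at 19.7 against 5.92 and at 15.0 against 4.73. The log2 ratio of mt-Nd6 was -1.58 as counted and -1.56 after subtraction, and that of Hist1h2aa -1.48 and -1.19. Over the ranges of the score, mt-Nd6 after subtraction stood at 27.4, 13.9, 3.37 and 1.90 in control and at 6.25, 1.23, 3.38 and 3.03 in cKO. It was thus lower in cKO only in the lowest and second ranges. The remaining 4 were Fam177a (-1.30 and -0.87), Gm11639 (-1.12 and -1.01), 4932415D10Rik (-1.10 and -0.92) and Fam98a (-1.0 and -0.97). All 10 of the genes with the lowest ratios stayed past 1.5-fold after this subtraction. Subtracting instead the barcodes of 10 to 100 UMIs left 9 of the 10, with mt-Nd6 at 0.00.

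Of the 10 genes with the highest ratio, 4 passed 1.5-fold. Map4k1, a kinase known from immune cells, stood at 15.3 CPM in control (14.2 to 16.6) and 32.5 in cKO (30.4 to 34.6), which is 1.04 higher on the log2 scale. It was higher in cKO in round spermatids as well (58.5 and 152) and in the droplets without cells (52.5 and 154), and its log2 ratio after subtraction was 1.11. Kcnip2, a calcium-binding partner of potassium channels, stood at 26.3 and 40.9 and was at 6.76 and 8.85 in round spermatids, a log2 ratio of 0.62 that was 0.55 after subtraction. Dmkn (5.27 and 10.8) and Gm49116 (9.49 and 14.9) were the others past 1.5-fold. Map4k1 and Dmkn lie on chromosome 7, as does Clasrp among the lowest ratios, and Kcnip2 lies on chromosome 19. The part of chromosomal position in these ratios was not tested. After subtraction Dmkn was at 0.88 and Gm49116 at 0.56, so that Kcnip2 and Gm49116 no longer passed.

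Arl9, a small GTPase of the ARF-like family, was the most abundant of these 10 genes. It stood at 110 CPM in control and 164 in cKO, which is 0.57 on the log2 scale, just under the limit of 0.58, and 0.70 under TMM scaling, where all 10 of these genes passed. Its levels over the 4 ranges were 98.4 to 121 in control and 150 to 175 in cKO. Inha, Amhr2 and Sparc, genes of Sertoli cells, were among the 10 at 7.86 and 12.2, 14.3 and 21.3 and 23.2 and 34.7, and the droplets without cells also held more of them in cKO (15.2 and 22.8, 27 and 37.6 and 51.9 and 75.6). After subtraction their log2 ratios were 0.70, 0.68 and 0.75, past 1.5-fold, from 0.57, 0.54 and 0.56 as counted, and without doublet calls 0.41, 0.42 and 0.41. All 3 were highest in the lowest range of the score, where Sparc stood at 37.6 and 68.8 and Amhr2 at 23.4 and 39.6, against 17.5 and 22.8 and 11.4 and 13.3 in the highest range. These 3 genes are in none of the marker lists, and the 3 measured genes of the Sertoli marker list had a median of -0.14 (-0.27 to 0.23).

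By function, most lists of spermatid genes lay near equality between libraries. None of the 12 genes of the outer dense fibres and fibrous sheath, the 13 of the sheath of mitochondria, the 10 of glycolysis, the 15 of ubiquitin or the 11 kinase and phosphatase genes passed 1.5-fold in either direction. Their medians on the log2 scale were -0.10, 0.01, 0.00, -0.04 and -0.11, beside -0.10 over all genes. Over all genes 5.07% were lower by this fold. Among the 15 chromatin compaction genes 1 was lower, Brwd1, and the median was -0.00. Among the 13 manchette genes 1 was lower, Ift88, a protein of intraflagellar transport, at 20.6 and 12.4 CPM, a call that ended after subtraction (-0.69 to -0.50) and under TMM scaling (-0.57). The manchette median was -0.14, and 0.01 after subtraction. The 16 acrosome genes had a median of -0.24, with none past 1.5-fold, and -0.03 after subtraction of free RNA.

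RNA storage genes had the lowest median of the spermatid gene lists with more than 2 genes measured, -0.35, and 4 of 12 were lower past 1.5-fold, beside 5.07% of all genes. They were Pabpc1 at 436 and 260 CPM, Boll, a germ-cell translation regulator, at 27.4 and 17.7, and the Tudor-domain genes of the chromatoid body Tdrd6 (49.0 and 29.0) and Tdrd7 (27.6 and 16.7). After subtraction of free RNA none of these 4 passed 1.5-fold, with log2 ratios of -0.36, -0.21, -0.23 and -0.32 and a list median of -0.22. Under TMM scaling Boll (-0.47) and Tdrd7 (-0.57) no longer passed. With equal weights for the ranges of the score the list median was -0.20, and Boll, at -0.49, no longer passed. Markers of earlier cells lay on the same side, with medians of -0.43 for early spermatocytes, -0.21 for late spermatocytes and -0.22 for round spermatids (-0.38, 0.26 and -0.05 after subtraction), and Pabpc1 and Tdrd6 were higher in control spermatocytes, at 3055 and 345 CPM. All 4 genes were also lower in cKO in round spermatids and in spermatocytes, such as Pabpc1 at 1707 and 1274 and at 3055 and 2390. The part of RNA from earlier cells in the list's median was not tested. In both libraries these 4 genes were also lower in each of the 3 upper ranges of the score than in the lowest one.

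Of 11 post-meiotic transcription regulators 3 were lower past 1.5-fold, beside 5.07% of all genes. Sox30, a transcription factor of early spermatids, stood at 101 and 66.2 CPM, at -0.61 on the log2 scale and -0.60 after subtraction. Nr6a1, the germ cell nuclear factor, stood at 92.8 and 52.6, at -0.81 and -0.78. Sox30 and Nr6a1 were also lower in cKO in round spermatids (170 and 123, 163 and 115) and in spermatocytes (77.1 and 57.4, 48.0 and 33.6). Taf7l, an X-linked subunit of the general transcription machinery, stood at 11.0 and 6.39, at -0.70 and -0.83. Over the ranges of the score Taf7l stood at 25.1, 8.24, 6.34 and 3.64 in control and at 13.1, 4.96, 6.63 and 3.52 in cKO. Its gap thus lay in the lowest and second ranges. Crem was at -0.17, and 0.04 after subtraction. The list had a median of -0.25, and -0.15 after subtraction. Under TMM scaling Sox30 (-0.48) and Taf7l (-0.58) no longer passed 1.5-fold, whereas Nr6a1 did (-0.68).

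**Figure D5:**
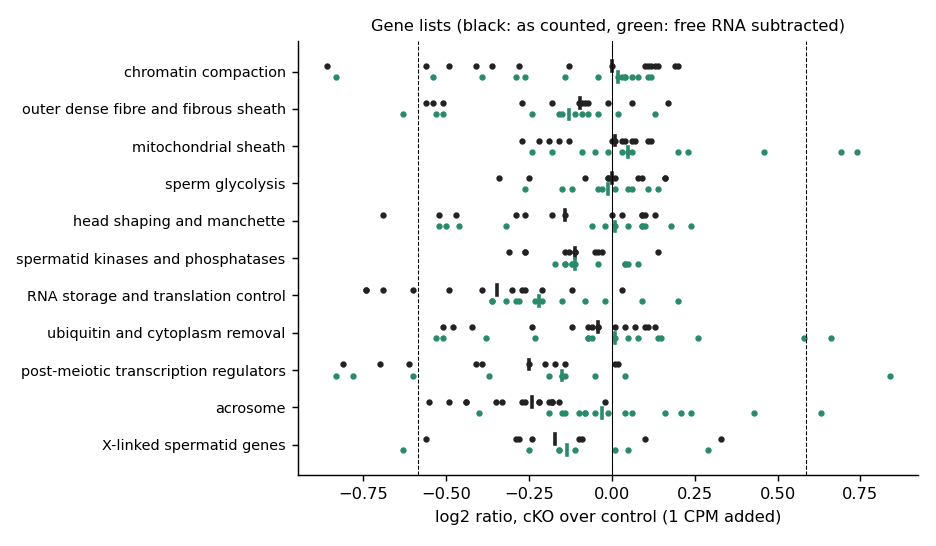
Log2 ratio of cKO over control in elongating spermatids (x axis, 1 CPM added) for each gene of the lists on the y axis; points are genes, bars medians, black as counted and green after subtraction of free RNA, and the dashed lines mark 1.5-fold. Medians lie between -0.35 and 0.01 as counted, and the RNA storage genes move towards 0 on subtraction, from -0.35 to -0.22.

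A few genes of the tail and the manchette lay close to the limit of 1.5-fold. Akap4, the X-linked anchor of protein kinase A that forms the fibrous sheath, stood at 2092 CPM in control (2079 to 2106) and 1416 in cKO (1402 to 1430), at log2 ratios of -0.56 and, after subtraction, -0.63, which is past 1.5-fold, and of -0.43 under TMM scaling. It was lower in cKO in every range, 1765 to 2407 against 1144 to 1569, and also in round spermatids (619 and 416) and in the droplets without cells (737 and 451). Akap3, the partner anchor, stood at 369 and 259 (-0.51, and -0.53 after subtraction), and Cabyr, a calcium-binding protein of the same sheath, at 184 and 126 (-0.54 and -0.51). Akap3 and Cabyr were named after their values had been seen. Other sheath genes differed less, with Ropn1 at 1068 and 1117 and Fscb at 137 and 128. Hook1 was at -0.47, and -0.52 after subtraction, with 822 to 1122 over the ranges in control and 572 to 790 in cKO. It was also lower in cKO in round spermatids (433 and 237) and in spermatocytes (195 and 124).

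X-linked RNA, which is silenced in meiosis and in part resumes in spermatids, made up 1.28% of the UMIs of elongating spermatids in control and 1.22% in cKO, against 1.2% and 1.12% in round spermatids and 0.209% and 0.194% in spermatocytes. Of the 8 X-linked spermatid genes measured none passed 1.5-fold, beside 5.14% of all genes, and their median was -0.17, beside -0.10 over all genes. After subtraction Akap4 passed, at -0.63. Cypt1 stood at 546 and 509 CPM and Cypt3 at 281 and 301, though copies of this family may share reads. Tsga8 stood at 255 and 211, against 1287 in round spermatids of the cKO. Genes of the Y chromosome held 0.00880% and 0.00717% of UMIs, and of 5 Y-linked spermatid genes only Sly reached 10 CPM. The genes that set or remove methylation of lysine 27 of histone H3 were low as well, and the 2 measured had a median of -0.45. Ezh2, the methyltransferase, stood at 30.1 and 23.8 (-0.33, and -0.09 after subtraction), and Suz12, a subunit of the same complex, at 14.7 and 9.53 (-0.57, and -0.62 after subtraction, past 1.5-fold). Over the ranges of the score, Suz12 after subtraction stood at 24.2, 7.76, 5.83 and 3.96 in control and at 11.0, 6.93, 5.95 and 3.97 in cKO. Its gap thus lay mainly in the lowest range. Kdm6b, the other demethylase gene, stood at 7.06 and 6.21.

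The chromatin libraries of the series come from sorted cKIT+ spermatogonia, many cell divisions before the elongating stage, with 2 control and 3 cKO libraries for open chromatin (ATAC-seq) and for the mark H3K27me3 (CUT&Tag). They show how genes of the elongating program were marked in precursors, on readouts that the rule did not use. Of the 496 genes at least 2-fold higher in elongating than in round spermatids, 41.5% and 52.0% had an ATAC peak over the promoter window in the control libraries and 33.7%, 40.3% and 53.6% in the cKO libraries. For the 2872 genes that were lower the shares were above these in every library, 66.3% and 73.7% in control and 57.0%, 65.0% and 76.4% in cKO. Over all 27025 genes they were 33.1% and 40.8%, and 25.6%, 31.2% and 43.6%. Control and cKO libraries overlapped in every set.

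H3K27me3 lay over 8.87% and 12.3% of the promoters of the higher genes in control and over 6.45%, 6.65% and 11.5% in cKO, so that the groups overlapped. The lower genes were covered less in every library, 4.35% and 5.92% in control and 2.51%, 3.27% and 5.29% in cKO, and over all genes the shares were 9.82% and 12.6%, and 5.37%, 7.44% and 11.4%. The IgG control library covered 0.202% of the higher genes and 0.281% of all genes. Peak lists carry no read depth, so how far depth set these shares is unknown, and the shares of a library moved together across sets.

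At the protamine cluster on chromosome 16 the marked regions differed from library to library. In control 1 a region of 1744 bases (chr16:10795877-10797620) lay over the Prm1 promoter printed above, and in control 2 a region of 3776 bases (chr16:10794048-10797823) did so, together with one over Prm2 and Prm3 (chr16:10790827-10793368). In cKO 1 a region over Prm2 and Prm3 (chr16:10789232-10792856) was called and none over Prm1. In cKO 3 a single region of 9561 bases (chr16:10790603-10800163) spanned the promoters of Prm1, Prm2 and Prm3. In cKO 2 the only region nearby (chr16:10798343-10799849) covered no promoter of the cluster. The Prm1 promoter was thus covered in 2 of 2 control and 1 of 3 cKO libraries and the Prm2 promoter in 1 of 2 and 2 of 3, and IgG covered neither. None of the 5 H3K27me3 libraries covered the Tnp2 promoter. An ATAC peak lay over Prm1 only in control 2, whereas the Odf2 promoter had one in all 5 libraries. These 5 libraries do not separate the genotypes at this cluster.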

How the data were processed

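The single-cell matrices hold UMI counts per gene and barcode as deposited by the authors, with no cells selected; Cell Ranger, Seurat 4.1.0 and mm10 are named in the submitters' processing notes. Counts of member cells were summed per library and divided by their total. The members, the lists and the score were chosen with earlier results of these data known. Genes were compared with at least 10 counts per 1000000 UMIs (CPM) in either group and 1 CPM added, and with exact Poisson intervals (scipy 1.17.1). Named were the scoring genes, Kdm6a, the 10 highest and the 10 lowest ratios whose intervals did not overlap, the 15 leading and the 15 most abundant genes, and of each list up to 4 most abundant members and those past 1.5-fold. Prm3, H1fnt, Hils1, Brdt, Akap3, Cabyr, Ropn1, Fscb, Fhit and Hormad1 fall outside this rule and were named after their values had been seen. Doublets were called with Scrublet (scanpy 1.11.5) and kept. On simulated counts the rule recovered 100 of 100 genes changed by 2-fold, 0 of 100 changed by 1.2-fold and called 0 of 5734 unchanged genes. The simulation held counting error only, without variation between libraries or free RNA, so it cannot show how many of the real calls are false. Factors came from edgeR 4.0.16 (TMM) and the median of ratios. Free RNA was subtracted, per cell, as the median UMIs and profile of droplets in the peak without cells, an alternative chosen after seeing the data.

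ATAC-seq peaks (MACS2 in the submitters' processing notes) carry a score, a fold enrichment (a ratio) and -log10 p and q from the authors, and CUT&Tag regions (SEACR) the authors' signal. None of these values was used beyond the positions; an overlap of 1 bp with a RefSeq promoter window counted (bedtools 2.31.1), and both sets use builds of the same assembly (mm10 and GRCm38.p6). By the file names, 4 of the 5 H3K27me3 libraries were downsampled and cKO 2 was not described so. Bulk RNA was not used here.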

Additional observations from a re-analysis of the deposited data

How the results depend on the processing

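No paired analysis was possible because each genotype has 1 single-cell library. The share of elongating spermatids was 46.1% in control and 47.1% in cKO with at least 2000 UMIs, 46.8% and 39.8% with at least 5000, 43.0% and 42.1% with a lead of at least 0.5, and 50.7% in control without doublet calls. The 4 higher and 301 lower genes in cKO became 5 and 414 with at least 2000 UMIs, 9 and 197 with at least 5000, 4 and 407 without doublet calls, 6 and 204 with z-scores within each library, 14 and 112 with TMM factors, 14 and 115 with the median of ratios, 7 and 171 with equal weights for the 4 ranges, 10 and 504 after subtracting the barcodes of 10 to 100 UMIs, and 2 and 133 with 5 CPM added. They became 15 and 601 without a minimum level, 0 and 67 with a minimum of 50 CPM, and 106 and 167 after subtracting the droplet peak; a lead of at least 0.5 gave 7 higher. With a minimum of 50, the genes 2-fold higher and lower than in round spermatids were 415 and 1819 in control and 483 and 1987 in cKO. The TMM and median-of-ratios factors shifted the scale by 0.13 and moved list medians up by about as much. Over all settings, list medians ran from -0.40 to -0.20 for RNA storage, from -0.29 to -0.13 for transcription regulators, from -0.32 to -0.03 for the acrosome and from -0.02 to 0.13 for chromatin compaction, and that of all genes from -0.14 to 0.03. Akap4 lay between -0.63 and -0.43, Hoga1 between -1.68 and -1.24 and Map4k1 between 0.88 and 1.16. No named ratio past 1.5-fold changed sign, though mt-Nd6 was at 0.00 after subtracting the low barcodes. The cause of these moves was not tested. One library a genotype, free RNA and cells of low depth limit every value.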
